A study of Mus musculus with 12 samples.

Results

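A set of 10 genes of leukocyte adhesion was followed across 12 RNA sequencing libraries of mouse CD8+ T cells. The genes were taken by symbol from the 55291 symbols of the deposited count table, and all 10 were found. Integrin α chains were Itgae (αE, CD103), Itga4 (α4), Itgal (αL, CD11a), Itgav (αv) and Itga6 (α6). Integrin β chains were Itgb7 (β7), Itgb2 (β2, CD18) and Itgb3 (β3). The remaining members were Cdh1, which encodes E-cadherin, and Icam1, which encodes ICAM-1, both counter-receptors of these integrins. All 10 passed the filter on low counts in every comparison, because each had enough counts in at least 1 of the groups compared.

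All cells were CD8+ T cells of wild-type male mice, taken from the spleen and the lymph nodes, and each group had 3 libraries. The rat tail collagen group was embedded on day 3, for 24 h, in a gel of rat tail collagen (RatCol) at 2 mg/mL. The bovine collagen group spent the same 24 h in a gel of bovine collagen (Nutragen), also at 2 mg/mL. The media group stayed in liquid culture for that time. These 3 groups had first been activated for 2 days with plate-bound antibody to CD3 and antibody to CD28, then expanded for 1 day in recombinant mouse interleukin 2, and their RNA was taken on day 4. The naive group was taken unstimulated on day 0. The labels give no strain beyond wild type, no age and no statement of whether libraries of 1 number share a mouse, so p-values measure the spread between these libraries. The study is about how T cells sense the mechanics of their surroundings and about the tissue-resident memory program.

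Integrins are pairs of 1 α and 1 β chain, and a chain reaches the cell surface only with its partner. αE pairs with β7 alone, and αEβ7 binds E-cadherin, the adhesion molecule between epithelial cells, which helps to hold resident CD8+ T cells in epithelia. α4 pairs with β7 to bind the gut homing ligand MAdCAM-1, or with β1 to bind VCAM-1 and fibronectin. αL and β2 form LFA-1, which binds ICAM-1 during contacts between T cells and other cells. αv pairs with β3 and other β chains to bind vitronectin and to release active TGF-β, and α6 pairs with β1 or β4 to bind laminin. TGF-β is known to induce Itgae in CD8+ T cells.

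Totals per library ran from 28483064 counts in bovine collagen 2 to 53138362 counts in media 1. The share of counts on ribosomal RNA was 10.96%, 5.03% and 13.2% in libraries 1, 2 and 3 of rat tail collagen, and 6.41%, 11.9% and 5.50% in the bovine collagen libraries. It was 4.57 ± 0.137% in media and 5.06 ± 0.958% in naive cells (SD, n = 3 each). The nuclear RNA Malat1 took 1.34 ± 0.197% in rat tail collagen, 0.226 ± 0.0439% in bovine collagen, 0.256 ± 0.0667% in media and 0.791 ± 0.0986% in naive cells. These values moved with the group, and their part in the results was not tested beyond the fits without the 3 libraries highest in ribosomal RNA. The labelled cell type was checked against Cd8a, Cd8b1, Cd3d, Cd3e, Cd3g, Cd247, Cd2 and Cd5. All 8 were detected, and their summed level was 2160 to 2388 CPM in rat tail collagen, 2907 to 3178 CPM in bovine collagen, 2850 to 3223 CPM in media and 3697 to 4349 CPM in naive libraries. Between rat tail collagen and media, 5 of the 8 fell, led by Cd2 (log2 -1.44), Cd5 (-1.08), Cd247 (-0.68) and Cd3g (-0.66), and none rose, where 28.7% of all genes tested fell and 29.7% rose. In bulk RNA, fewer cells that express a gene and less of its RNA per cell cannot be told apart.

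Rat tail collagen changed 8 of the 10 genes relative to media, 5 upward (Itga4, Itgal, Itgav, Itgb3 and Cdh1) and 3 downward (Itgae, Itgb7 and Itgb2). A change here is an adjusted p under 0.05 in edgeR's quasi-likelihood test, over 19392 genes. Much of the transcriptome moved in this comparison: 58.4% of all genes tested passed the same threshold, 29.7% higher and 28.7% lower. The groups did not overlap in 8 of the 10 members, against 64.8% of all genes. The median log2 fold change was 0.20 over the 10 members and -0.01 over all genes tested. Icam1 and Itga6 did not pass. Levels below are in CPM, counts scaled to library size on a common scale of the 12 libraries, and changes are log2 fold changes with a standard error (SE).

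**Figure D1:**
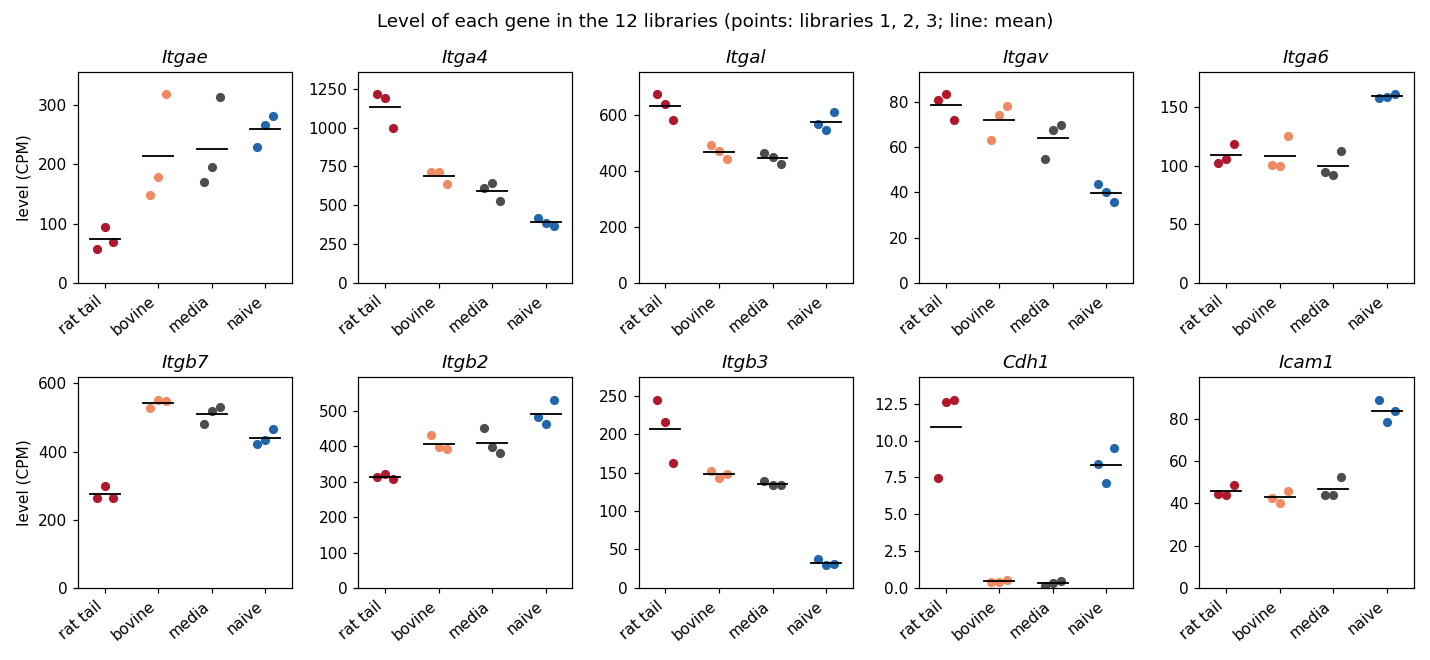
Level of each of the 10 genes in CPM (vertical axis, linear, from 0) in the rat tail collagen, bovine collagen, media and naive libraries, with a point for each of the 3 libraries of a group and a line at their mean. The rat tail collagen points lie below all others for Itgae, Itgb7 and Itgb2 and above all others for Itga4, and Cdh1 is near 0 in bovine collagen and media but not in rat tail collagen or naive cells.

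Itgae lies on chromosome 11 at 73090583 to 73147446, plus strand (GRCm38), with 4581 bp of exon. It had 56.6, 93.6 and 69.2 CPM in rat tail collagen libraries 1, 2 and 3, 147.5, 179 and 318 CPM in the bovine collagen libraries, 170.2, 196 and 315 CPM in media and 229, 267 and 281 CPM in naive cells. Every rat tail collagen library was below every other library, while bovine collagen and media overlapped with each other and with naive cells. Itgae fell in rat tail collagen against media by 1.64 on the log2 scale, 3.12-fold lower (SE 0.35, 95% interval -2.45 to -0.83, edgeR adjusted p = 0.00408). It was among the genes that moved down most in this comparison, at the 2.15 percentile of all log2 fold changes. The decrease relative to bovine collagen was 2.95-fold (log2 -1.56, edgeR adjusted p = 0.00575), and relative to naive cells 3.52-fold (log2 -1.82, SE 0.18, edgeR adjusted p = 7.1e-05). Without the 3 libraries highest in ribosomal RNA, which leaves rat tail collagen 2 alone in its group, the change against media was -1.28 and that against bovine collagen -1.31, and neither passed (edgeR adjusted p = 0.0839 and 0.0996). The protein kinase gene Haspin lies within Itgae on the opposite strand without sharing exon bases, and had 32.7 CPM in rat tail collagen, 45.7 in bovine collagen, 45.0 in media and 10.2 in naive cells.

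The level of Itgae varied more between replicates than that of most members once cells had been activated. Its coefficient of variation was 25.7% in rat tail collagen, 42.3% in bovine collagen, 34.0% in media and 10.4% in naive cells. Library 3 was the highest and library 1 the lowest in both media (log2 deviations from the group mean of -0.36, -0.16 and 0.52) and bovine collagen (-0.46, -0.18 and 0.65). In rat tail collagen the highest was library 2. Foxp3, the gene of regulatory T cells, which can carry CD103, was chosen for mention after its values were seen. It had 3.59, 4.00 and 19.4 CPM in rat tail collagen, 0.530, 0.873 and 4.41 CPM in bovine collagen, 0.497, 0.877 and 4.23 CPM in media and 4.36, 2.41 and 2.60 CPM in naive cells. It too was highest in library 3 and lowest in library 1 of media and bovine collagen, and its part in the level of Itgae was not tested. Media against naive therefore gave a log2 fold change of -0.13 with a wide interval of -0.59 to 0.33 (edgeR adjusted p = 0.598). Without media 3 the same comparison passed at -0.43 (edgeR adjusted p = 0.0104), and without media 1 it was 0.05 (adjusted p range over all 15 alternatives 0.0104 to 0.918).

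Itga4, the α chain of the gut homing integrin and of VLA-4, moved the other way. It had 1213, 1192 and 998 CPM in rat tail collagen, 711, 715 and 634 CPM in bovine collagen, 610.3, 643 and 524 CPM in media and 415, 382 and 368 CPM in naive cells. The rat tail collagen libraries were above all others, the naive libraries below all others, and bovine collagen overlapped with media. Against media the rise was 1.90-fold (log2 0.93, SE 0.11, edgeR adjusted p = 2.14e-05). It was 0.72 on the log2 scale against bovine collagen (edgeR adjusted p = 0.000171) and 1.55 against naive cells (2.93-fold, edgeR adjusted p = 2.96e-07). Media cells had already gained 1.59-fold over naive cells (log2 0.67, edgeR adjusted p = 0.000410). The gene lies on chromosome 2 at 79255426 to 79333123, plus strand, with 13978 bp of exon, and Cerkl on the opposite strand shares 1124 bp of them. Since the strand setting of the counting is not given in the sources used here, reads of the shared stretch cannot be assigned, but Cerkl had only 75 to 255 counts per library.

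Itgb7, the β chain that both αE and α4 can use, fell in all 3 rat tail collagen libraries. It had 265, 298 and 265 CPM there, 529, 552 and 548 CPM in bovine collagen, 481, 519 and 531 CPM in media and 422, 433 and 467 CPM in naive cells. The rat tail collagen values were the lowest 3 of the 12, and the highest replicate there was below the lowest naive one. Against media the decrease was 1.86-fold (log2 -0.90, SE 0.08, edgeR adjusted p = 2.65e-06), against bovine collagen 1.98-fold (log2 -0.99, edgeR adjusted p = 1.56e-06), and against naive cells 0.67 on the log2 scale (log2 -0.67, edgeR adjusted p = 2.68e-05). Media cells were 1.21-fold above naive cells (log2 0.28, edgeR adjusted p = 0.0156), a call that was lost without naive 1 (adjusted p = 0.108), naive 2 (0.0985) or media 2 (0.0593). Itgb7 lies on chromosome 15 at 102215995 to 102231944, minus strand, with 2770 bp of exon.

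The set of RefSeq promoters on GRCm38.p6 used here covered 4 of the 10 members (Itga4, Itgav, Icam1 and Itgb7), and the other members were not searched. The 250 bases before the start of Itga4 and Itgb7 are shown because these chains of 1 integrin changed in opposite directions. Capitals mark matches to motifs searched on both strands, where N is any base: RUNX TGNGGT, ETS CCGGAA, AP-1 TGANTCA, GC box GGGCGG and NF-κB GGGNNTTCC.
Itga4, chr2:79255176-79255425, plus strand: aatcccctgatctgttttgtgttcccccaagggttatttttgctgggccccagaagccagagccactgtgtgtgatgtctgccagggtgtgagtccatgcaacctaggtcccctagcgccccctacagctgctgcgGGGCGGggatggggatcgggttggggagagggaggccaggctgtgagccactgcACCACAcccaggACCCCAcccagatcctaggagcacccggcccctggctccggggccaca
Itgb7, chr15:102231936-102232185, minus strand: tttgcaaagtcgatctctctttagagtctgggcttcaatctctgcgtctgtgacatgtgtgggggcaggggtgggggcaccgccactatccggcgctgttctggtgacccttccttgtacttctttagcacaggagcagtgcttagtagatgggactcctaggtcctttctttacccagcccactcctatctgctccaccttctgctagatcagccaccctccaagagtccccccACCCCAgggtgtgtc
In Itga4 the letters held 2 RUNX matches on the minus strand, ACCACA and ACCCCA, and 1 GC box. In Itgb7 they held 1 RUNX match, ACCCCA, on the minus strand. Icam1 held 3 ETS matches and 1 GC box, and Itgav held no match to the 5 motifs. Among 32851 promoters of the same length, 40.1% held the RUNX letters, 32.7% the GC box, 12% the ETS, 6.75% the AP-1 and 4.98% the NF-κB letters. A match describes the letters only.

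Both chains of LFA-1 passed against media, in opposite directions. Itgal had 673, 640.2 and 583 CPM in rat tail collagen, 491, 469.8 and 442 CPM in bovine collagen, 465, 448 and 425 CPM in media and 569, 544 and 611 CPM in naive cells. The rat tail collagen libraries were above those of bovine collagen and media and overlapped with the naive ones. Itgal rose 1.41-fold over media (log2 0.49, SE 0.08, edgeR adjusted p = 0.000305), and the difference from naive cells was 0.14 (95% interval -0.04 to 0.33, edgeR adjusted p = 0.143). In media it was 1.23-fold below naive cells (log2 -0.30, edgeR adjusted p = 0.00987). The β chain gene Itgb2 had 313, 321 and 307 CPM in rat tail collagen, 433, 397 and 392 CPM in bovine collagen, 452, 399 and 382 CPM in media and 485, 462 and 532 CPM in naive cells. No rat tail collagen library reached any other. Itgb2 fell 1.32-fold against media (log2 -0.40, SE 0.08, edgeR adjusted p = 0.00106), 0.39 on the log2 scale against bovine collagen (log2 -0.39, edgeR adjusted p = 0.00147) and 0.65 against naive cells (log2 -0.65, edgeR adjusted p = 2.64e-05). Without the 3 libraries highest in ribosomal RNA, the comparisons with media and bovine collagen both gave -0.36 and did not pass (edgeR adjusted p = 0.0884 and 0.117). With library totals in place of TMM factors the value against bovine collagen was -0.24 and did not pass either (edgeR adjusted p = 0.102).

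Among the chains of vitronectin receptors, Itgb3 stood out by its rise after activation. It had 245, 215 and 162 CPM in rat tail collagen, 153, 143 and 149 CPM in bovine collagen, 139.6, 134 and 133 CPM in media and 37.1, 29.4 and 31.8 CPM in naive cells. All 9 activated libraries were above the naive ones, and the lowest rat tail collagen library was above the highest bovine collagen library. Media cells had 4.32-fold more than naive cells (log2 2.11, SE 0.10, edgeR adjusted p = 1.69e-07), and rat tail collagen cells 6.35-fold more (log2 2.67, SE 0.16, edgeR adjusted p = 2.85e-06). Rat tail collagen was 1.52-fold above media (log2 0.60, SE 0.12, edgeR adjusted p = 0.00121) and 0.48 on the log2 scale above bovine collagen (edgeR adjusted p = 0.00591). Platelets carry αIIbβ3. The 7 platelet and megakaryocyte markers (Itga2b, Pf4, Ppbp, Gp9, Gp1bb, Gp6 and Tubb1) summed to 1.94 to 2.65 CPM in rat tail collagen, 3.34 to 6.17 in bovine collagen, 3.16 to 5.63 in media and 6.61 to 20.6 in naive libraries, and their part in the level of Itgb3 was not tested. Gp9 and Gp1bb were at 0 in rat tail collagen, and Gp1bb also in media and naive libraries.

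Itgav had 80.9, 83.3 and 72.2 CPM in rat tail collagen, 63.1, 74.2 and 78.3 CPM in bovine collagen, 54.8, 67.7 and 70.0 CPM in media and 43.6, 40.1 and 35.9 CPM in naive cells. All activated libraries were above the naive ones, and rat tail collagen lay above media and overlapped with bovine collagen. It gained 1.68-fold in media over naive cells (log2 0.75, edgeR adjusted p = 0.000422) and 1.99-fold in rat tail collagen over naive cells (log2 0.99, edgeR adjusted p = 3.79e-06). The rise in rat tail collagen against media was near the threshold (log2 0.29, 95% interval 0.04 to 0.53, edgeR adjusted p = 0.0459). That call was lost without media 1 (log2 0.17, adjusted p = 0.167), media 2 (0.0566), bovine collagen 2 (0.0691), rat tail collagen 1 (0.109) or rat tail collagen 2 (0.145), and without the 3 libraries highest in ribosomal RNA (0.152).

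Itga6, the laminin-binding α chain, set naive cells apart from activated ones but not the activated groups from each other. It had 103, 106 and 119 CPM in rat tail collagen, 100.4, 99.3 and 126 CPM in bovine collagen, 94.6, 92.1 and 113 CPM in media and 158, 159 and 161 CPM in naive cells. The naive libraries were above all others and the activated groups overlapped. It fell 1.53-fold in media against naive cells (log2 -0.61, edgeR adjusted p = 0.000263) and by 0.54 on the log2 scale in rat tail collagen against naive cells (log2 -0.54, edgeR adjusted p = 6.33e-05). Rat tail collagen against media gave 0.12 (95% interval -0.12 to 0.35, edgeR adjusted p = 0.381) and rat tail against bovine collagen -0.00 (95% interval -0.24 to 0.24, edgeR adjusted p = 0.995), intervals that leave room for changes of up to about that size.

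Cdh1 changed more than any other member in each comparison of rat tail collagen with media or bovine collagen. The ligand of αEβ7 lies on chromosome 8 at 106603351 to 106670246, plus strand, with 4574 bp of exon. It had 7.45, 12.6 and 12.8 CPM in rat tail collagen (249, 751 and 447 counts), 0.391, 0.436 and 0.535 CPM in bovine collagen (14, 11 and 21 counts), 0.153, 0.323 and 0.470 CPM in media (8, 14 and 22 counts) and 8.37, 7.14 and 9.53 CPM in naive cells (319, 272 and 395 counts). Cdh1 RNA was thus low but detected in naive cells, close to the counting limit in media and bovine collagen, and in rat tail collagen at levels that overlapped with naive cells. Against media it was 34.7-fold higher in rat tail collagen (log2 5.12, SE 0.33, 95% interval 4.39 to 5.84, edgeR adjusted p = 2.44e-07), and against bovine collagen 23.7-fold (log2 4.57, 95% interval 3.85 to 5.29, edgeR adjusted p = 6.24e-07). In media it was 25.5-fold below naive cells (log2 -4.67, SE 0.31, edgeR adjusted p = 2.1e-06). Rat tail collagen against naive cells gave 0.40 (95% interval -0.08 to 0.87, edgeR adjusted p = 0.115). This last comparison passed without rat tail collagen 1, the library with the lowest value of the group (log2 0.63, edgeR adjusted p = 0.00290), and over 15 alternatives its adjusted p ran from 0.00290 to 0.305.

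Itgae, the receptor, and Cdh1, the ligand, therefore differed in opposite directions between rat tail collagen and media, at the 2.15 and the 98.7 percentile of all log2 fold changes in this comparison. In naive cells both were detected in all 3 libraries.

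Icam1, the ligand of LFA-1, fell with activation, and no comparison between activated groups passed. It had 44.5, 44.0 and 48.7 CPM in rat tail collagen, 42.5, 40.1 and 45.7 CPM in bovine collagen, 43.9, 43.7 and 52.5 CPM in media and 88.9, 78.6 and 83.7 CPM in naive cells. The naive libraries were above all others and the activated groups overlapped. Media cells had 1.72-fold less than naive cells (log2 -0.78, edgeR adjusted p = 7.25e-05), and rat tail collagen cells were at -0.87 (edgeR adjusted p = 2.45e-06). Rat tail collagen against media gave -0.04 (95% interval -0.23 to 0.15, edgeR adjusted p = 0.720). Myeloid cells express Icam1, and 8 myeloid markers (Lyz2, Csf1r, Cd14, Cd68, Adgre1, Fcgr3, Cybb and S100a8) had their highest sum in naive libraries. They summed to 17.4 to 24.8 CPM in rat tail collagen, 7.06 to 7.82 in bovine collagen, 7.18 to 9.09 in media and 39.8 to 144 CPM in naive libraries. The rat tail collagen sum was mostly Cd68, at 18.8 CPM, against 7.10 CPM in naive cells. Cd14 averaged 0.902 CPM in rat tail collagen, against 0.605 CPM in naive cells. Of the 7 markers tested in rat tail collagen against naive cells, 1 was higher and 5 were lower, where 71.9% of all genes passed. S100a8 was at 0 in the 3 activated groups. Lyz2 had 60.3, 28.4 and 16.5 CPM in naive libraries 1, 2 and 3, where Icam1 had the values above. The part of such cells in the naive levels of Icam1, Itgb2, Itgae and Cdh1 was not tested.

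**Figure D2:**
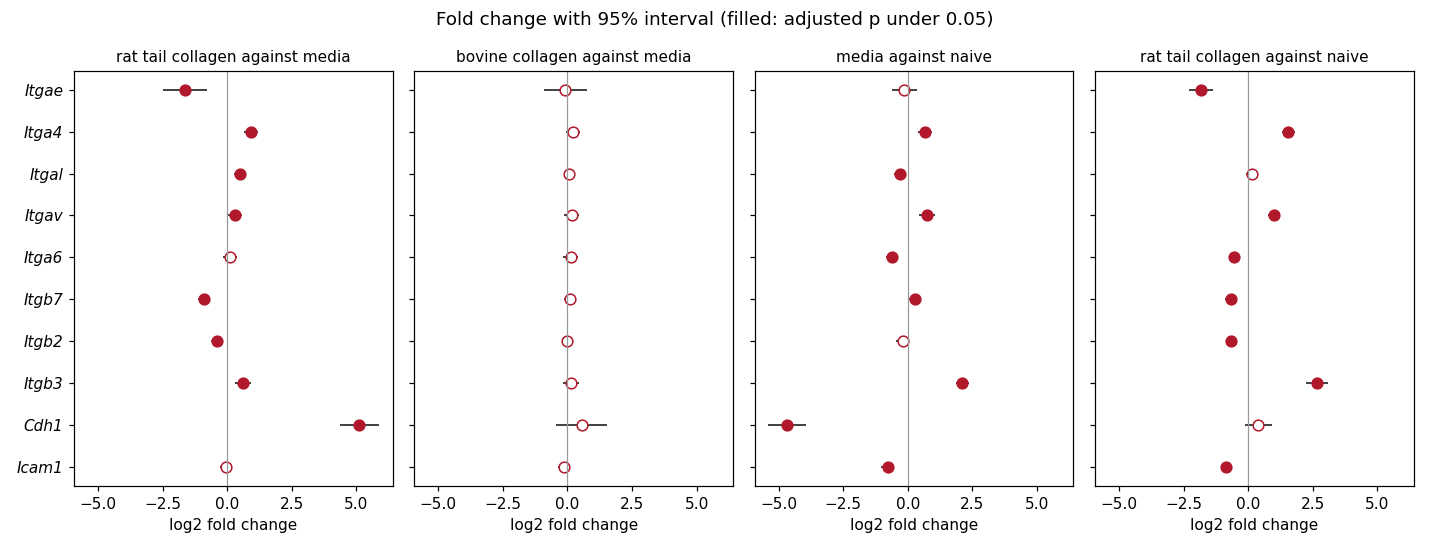
Log2 fold change (horizontal axis, 0 marked) of the 10 genes, 1 panel per comparison drawn, with 95% intervals and filled points where the adjusted p was under 0.05. In bovine collagen against media all 10 points are open and near 0, while rat tail collagen against media shows Cdh1 at 5.12 and Itgae at -1.64.

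Bovine collagen, at the same concentration and for the same time, gave no call among the 10 genes against media. With edgeR 0 of the 10 passed, 0 of the 10 had an unadjusted p under 0.05, and DESeq2 also called 0. Over all genes edgeR called 4, 0.0206% of those tested, 810 had an unadjusted p under 0.05, and DESeq2 called 22. Itgb3 was the only member whose groups did not overlap (153, 143 and 149 CPM in bovine collagen, against 139.6, 134 and 133 CPM in media), as did not 8.78% of all genes. Its log2 fold change was 0.13 (95% interval -0.14 to 0.39). The intervals of the members limit what this comparison could miss: -0.09 to 0.26 for Itgb7, -0.11 to 0.24 for Itgal, -0.19 to 0.16 for Itgb2 and -0.02 to 0.45 for Itga4. They were wide for Itgae (log2 -0.08, -0.87 to 0.71) and for Cdh1 (log2 0.55, -0.39 to 1.48), so a 1.5-fold change in either direction lay inside the interval of Itgae and a rise of that size inside that of Cdh1. The edgeR adjusted p was 1 for all 10.

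Set directly against bovine collagen, rat tail collagen changed 7 of the 10 genes, 4 higher (Itga4, Itgal, Itgb3 and Cdh1) and 3 lower (Itgae, Itgb7 and Itgb2), beside 54.7% of all genes (28.4% higher and 26.4% lower). The groups did not overlap for 7 members and for 63.8% of all genes. The members' median was 0.11 on the log2 scale and that of all genes 0.00. With library totals in place of TMM factors the median of all genes in this comparison moved to 0.15, so small changes depend on the scaling, and Itga6 then read 0.14. This comparison shares its rat tail collagen libraries with the one against media, so the likeness of the member values is no separate evidence.

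Activation and 4 days of culture, seen in media against naive, changed 8 of the 10 genes in another pattern: Itga4, Itgav, Itgb7 and Itgb3 rose, and Itgal, Itga6, Cdh1 and Icam1 fell. Over all genes 60.8% passed (31.6% higher and 29.2% lower), so this share is not particular to the members either. Groups did not overlap in 9 of the 10 and in 67.6% of all genes. The member median was -0.16 and that of all genes -0.00. Itgb2 was at -0.20 (95% interval -0.41 to 0.01, edgeR adjusted p = 0.0883), and it passed without media 1 (-0.26, adjusted p = 0.0212), with library totals (-0.24, 0.0370), with DESeq2 (-0.22, 0.0319) and with all 12 libraries in the fit (-0.26, 0.0133). Rat tail collagen against naive cells called 8 members, 3 higher (Itga4, Itgav and Itgb3) and 5 lower (Itgae, Itga6, Itgb7, Itgb2 and Icam1), with 71.9% of all genes called (36.5% higher and 35.4% lower) and groups apart in 8 members and 76.2% of genes. The member median was -0.20 and that of all genes -0.00. Media and rat tail collagen share the naive libraries in these comparisons.

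Dividing by exon length puts the levels of different genes on 1 scale, CPM per kb of exon. The length is the union of annotated exons, so the order of genes depends on it. In rat tail collagen the level was 103 ± 2.31 for Itgb2, 99.5 ± 6.83 for Itgb7, 96.2 ± 6.93 for Itgal and 81.2 ± 8.48 for Itga4 (SD, n = 3 each, here and below). Itgb2, Itgb7 and Itgal lay within each other's spread at the top. They were followed by Itgb3 at 35.1 ± 7.11, Itgae at 16.0 ± 4.11, Itga6 at 12.1 ± 0.957, Icam1 at 10.5 ± 0.595, Itgav at 7.34 ± 0.546 and Cdh1 at 2.39 ± 0.660 CPM per kb, where Itga6 lay within 1 SD of Itgae. In media Itgb7 led with 184 ± 9.35, above Itgb2 at 135 ± 12 and Itgal at 67.9 ± 3.07 CPM per kb. There Itgae (49.5 ± 16.8) and Itga4 (42.4 ± 4.39) could not be ordered beyond their spread, and neither could Itga6 (11.1 ± 1.25) and Icam1 (10.7 ± 1.14). Itgb3 at 23.0 ± 0.606 lay between those pairs, and Itgav at 5.97 ± 0.763 and Cdh1 at 0.0690 ± 0.0348 CPM per kb came last. Bovine collagen kept the order of media except that Itga4 (49.1 ± 3.26) and Itgae (46.9 ± 19.8 CPM per kb) changed places within their spread. In naive cells Itgb2 (162 ± 11.7) and Itgb7 (159 ± 8.59) could not be ordered, and Itgal (87.5 ± 5.11), Itgae (56.6 ± 5.87) and Itga4 (27.8 ± 1.71) followed, each apart from the next. Icam1 (19.2 ± 1.18) and Itga6 (17.6 ± 0.151) came near each other, ahead of Itgb3 (5.55 ± 0.671), Itgav (3.71 ± 0.358) and Cdh1 (1.82 ± 0.261 CPM per kb).

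Seen as shares of the 5 α chain genes on that scale, Itgae made up 7.51 ± 1.80% in rat tail collagen, 24.8 ± 8.31% in bovine collagen, 27.7 ± 7.46% in media and 29.3 ± 2.27% in naive cells. The share of Itga4 was 38.1 ± 1.40% in rat tail collagen, 26.6 ± 3.75% in bovine collagen, 24.1 ± 3.8% in media and 14.4 ± 1.37% in naive cells. Itgal held 45.2 ± 1.36% in rat tail collagen, 38.5 ± 4.96% in bovine collagen, 38.6 ± 4.19% in media and 45.3 ± 1.39% in naive cells, so rat tail collagen and naive cells had about the same share of it. Among the 3 β chain genes, Itgb3 took 14.7 ± 2.52% in rat tail collagen, 7.08 ± 0.188% in bovine collagen, 6.71 ± 0.115% in media and 1.71 ± 0.240% in naive cells. Itgb7 held 41.9 ± 1.76% in rat tail collagen, 55.3 ± 1.78% in bovine collagen, 53.9 ± 3.23% in media and 48.8 ± 1.04% in naive cells. These shares count RNA of the members only and leave out the other α and β chains.

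**Figure D3:**
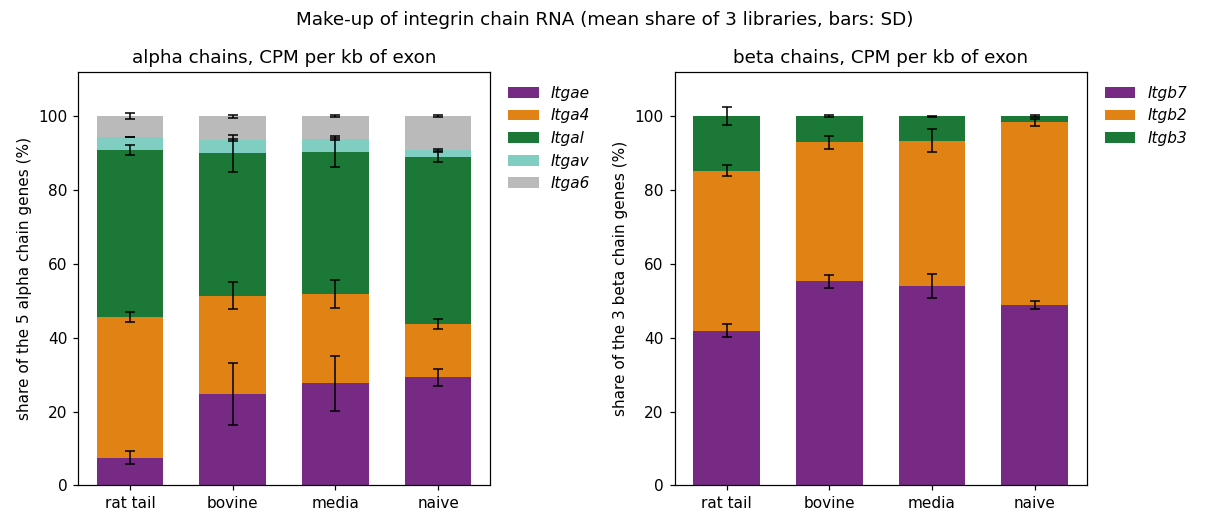
Stacked bars of the share (%) of each of 5 α chain genes and of each of 3 β chain genes in the summed CPM per kb of exon of that class, as the mean of 3 libraries per group with SD. Itgae takes 7.51% of the α chain sum in rat tail collagen and 24.8% to 29.3% in the other groups, and Itgb3 grows to 14.7% of the β chain sum in rat tail collagen, against 1.71% in naive cells.

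Ratios within a library do not depend on the scaling between libraries. The ratio of Itgae to Itga4, the α chains that share β7, was 0.142, 0.240 and 0.212 in rat tail collagen, 0.632, 0.763 and 1.531 in bovine collagen, 0.851, 0.928 and 1.831 in media and 1.688, 2.132 and 2.334 in naive cells. Rat tail collagen lay below all others, and media overlapped with bovine collagen and with naive cells. The log2 difference was -2.55 between rat tail collagen and media (two-sided exact permutation p = 0.1, the smallest that 3 against 3 libraries allows, 0.167 after adjustment over 20 ratio tests). It was -3.39 between rat tail collagen and naive cells (exact p = 0.1), and -0.85 between media and naive cells (exact p = 0.2). The design cannot bring any of these ratio tests below 0.1.

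The ratio of Itgae to its own partner Itgb7 was 0.129, 0.190 and 0.158 in rat tail collagen, 0.169, 0.196 and 0.351 in bovine collagen, 0.214, 0.228 and 0.358 in media and 0.329, 0.373 and 0.364 in naive cells. Rat tail collagen was below media (log2 difference -0.72, exact permutation p = 0.1) and overlapped with bovine collagen (-0.53, exact permutation p = 0.2). In all 12 libraries the αE transcript was less abundant per length than that of β7. The ratio of Itga4 to Itgb7, added after the values were seen and not tested, was 0.908, 0.794 and 0.747 in rat tail collagen, 0.267, 0.257 and 0.229 in bovine collagen, 0.251, 0.246 and 0.196 in media and 0.195, 0.175 and 0.156 in naive cells. On this scale, which divides Itga4 by 13978 bp and Itgb7 by 2770 bp, rat tail collagen was the only group in which α4 RNA came near that of β7. Undivided, Itga4 averaged 1134 CPM, against 276 CPM for Itgb7, in rat tail collagen and 687, against 543, in bovine collagen. The values were 593, against 511, in media and 388, against 440, in naive cells.

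For LFA-1, the ratio of Itgal to Itgb2 was 0.9999, 0.927 and 0.883 in rat tail collagen, 0.527, 0.549 and 0.524 in bovine collagen, 0.478, 0.522 and 0.517 in media and 0.545, 0.547 and 0.533 in naive cells. The bovine collagen, media and naive libraries lay between 0.478 and 0.549, and the rat tail collagen libraries above that. The log2 difference was 0.89 between rat tail collagen and media and 0.79 between rat tail collagen and naive cells, against 0.08 between bovine collagen and media and -0.10 between media and naive cells. None of these 4 pairs overlapped, so each had the smallest possible exact permutation p = 0.1, and the pairs differ in size and not in p. The ratio of Itgav to Itgb3 was 0.182, 0.213 and 0.245 in rat tail collagen, 0.227, 0.284 and 0.289 in bovine collagen, 0.216, 0.279 and 0.288 in media and 0.645, 0.749 and 0.621 in naive cells. Here the step lay between naive and activated cells (log2 difference -1.37 between media and naive cells, exact permutation p = 0.1), while rat tail collagen overlapped with media (-0.29, exact permutation p = 0.2).

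**Figure D4:**
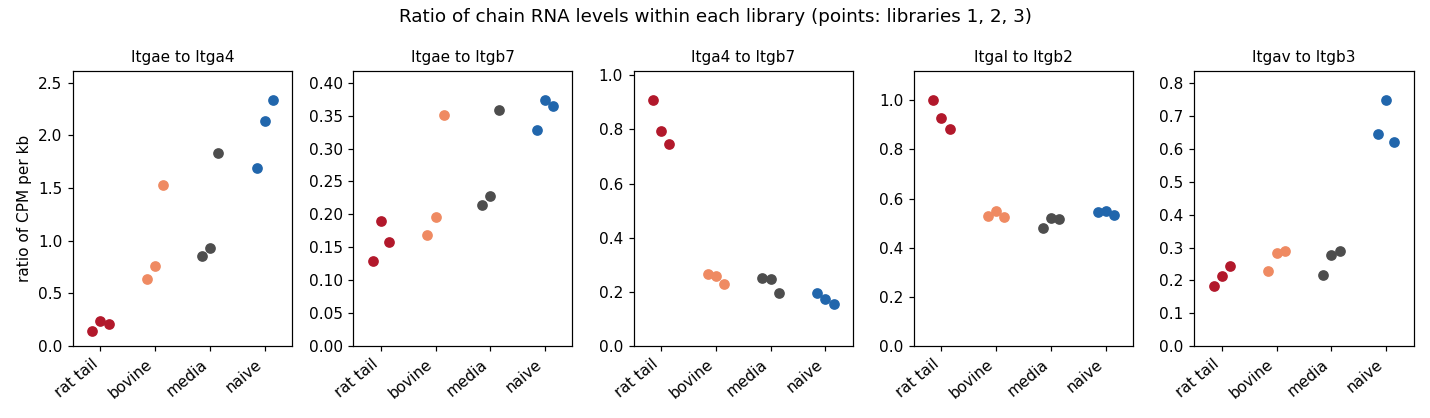
Ratio of CPM per kb of exon between 2 chains within each library (vertical axis, linear, from 0), for 5 pairs of chains, with a point for each of the 3 libraries of a group. Rat tail collagen lies apart from all other groups for Itgae to Itga4, Itga4 to Itgb7 and Itgal to Itgb2, and naive cells lie apart for Itgav to Itgb3.

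The remaining integrin genes showed no common direction. Of 13 other α chains 11 could be tested, and in rat tail collagen against media 5 rose and 4 fell, where 29.7% of all genes rose and 28.7% fell (median log2 -0.05, against -0.01 over all genes). Itga2, a collagen-binding chain, averaged 1.17 CPM in rat tail collagen, against 13.9 CPM in media, and fell (log2 -3.60, edgeR adjusted p = 3.36e-09). The collagen-binding chains Itga1 and Itga10 went the other way, without overlap between the libraries of these groups. Itga1 averaged 2.984 CPM in rat tail collagen, against 0.787 CPM in media, and Itga10 2.632 CPM, against 1.304 CPM. Itga9, which passed the low count filter only through the rat tail collagen libraries (log2 4.01, edgeR adjusted p = 6.65e-07), the laminin-binding Itga3 (1.48, 3e-06) and the fibronectin-binding Itga5 (0.997, 0.000101) rose. Of 5 other β chains 3 could be tested, and Itgb4 (log2 1.71, edgeR adjusted p = 4.46e-05) and Itgb5 (1.08, 0.000106) rose. Itgb1, the common partner of α4, α6 and the collagen-binding chains, had 383 ± 88.4 CPM in rat tail collagen, 354 ± 49.0 in bovine collagen, 360 ± 56.6 in media and 153 ± 23.6 in naive cells. It did not pass in rat tail collagen against media (log2 0.08, edgeR adjusted p = 0.704) but rose in media against naive cells (1.29, edgeR adjusted p = 5.73e-05). In that comparison, in which 31.6% of all genes rose and 29.2% fell, 4 of the 11 α chains rose, among them Itga7 (2.21), and 5 fell, among them Itga10 (-1.28) and Itga9 (-3.86), and Itgb4 rose with Itgb1 (1.03).

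Genes that activate integrins from inside the cell were followed next. Of 16 listed tail binders and activators 14 could be tested, and 10 fell and 2 rose in rat tail collagen against media, where 28.7% of all genes fell and 29.7% rose (median log2 -0.60, against -0.01 over all genes). Rasgrp2, the exchange factor that loads the GTPase Rap1 with GTP, had 60.7, 77.6 and 72.1 CPM in rat tail collagen, 385, 416 and 464 CPM in bovine collagen, 426, 470 and 486 CPM in media and 316, 313 and 333 CPM in naive cells. No rat tail collagen library came near the other groups (log2 -2.72 against media, edgeR adjusted p = 1e-08). Rap1a itself (log2 -0.96, edgeR adjusted p = 3.17e-07) and the Rap1 effectors Rassf5 (-0.90, 6.02e-07) and Apbb1ip (-1.36, 5.02e-06), which encode RAPL and RIAM, fell as well. The 2 that rose were the focal adhesion genes Vcl (0.63) and Pxn (0.27). Against naive cells media had 6 of the 14 higher, led by Vcl (2.28) and Rap1a (0.84), and 5 lower, among them Rassf5 (-0.55), where 60.8% of all genes passed.

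Of 17 genes for other ligands and partners of these integrins 12 could be tested, and 7 rose and 3 fell in rat tail collagen against media, where 58.4% of all genes passed. Jam2 and Fn1, both among the 7, passed the low count filter only through the rat tail collagen libraries, so the filter fixed their direction. F11r, which encodes JAM-A, a ligand of LFA-1, had 7.51, 7.59 and 7.26 CPM in rat tail collagen, against 0.535, 0.438 and 0.385 CPM in media (log2 4.02, edgeR adjusted p = 9.75e-08). Jam2, whose product binds α4β1, had 13.2, 10.4 and 11.3 CPM in rat tail collagen, against 0.0382, 0.0461 and 0 CPM in media (edgeR adjusted p = 6.62e-09). Of the other ICAM genes, Icam2 fell (log2 -1.70, edgeR adjusted p = 1.02e-07) and Icam5 rose (3.41, 1.37e-07). Vcam1, which encodes the ligand of α4β1, was at no more than 0.0599 CPM in rat tail collagen, at 0 in the bovine collagen and media libraries and at 50.1, 6.38 and 5.28 CPM in naive libraries 1, 2 and 3. In media against naive cells 5 of 12 rose, among them the laminin chain Lamc1 (4.37), Cd47 (1.09) and Mfge8 (0.91), and 3 fell, where 60.8% of all genes passed.

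E-cadherin acts with the catenins, which tie its tail to actin. Of 11 genes of cadherins, catenins and the E-cadherin receptor KLRG1 7 could be tested, and 3 rose and none fell in rat tail collagen against media, a share of calls below the 58.4% of all genes. Jup, which encodes γ-catenin, had 52.9, 46.8 and 35.1 CPM in rat tail collagen, 2.06, 2.14 and 2.04 CPM in bovine collagen, 1.28, 1.32 and 1.13 CPM in media and 7.09, 2.91 and 3.64 CPM in naive cells. It rose with Cdh1 (log2 5.17 against media, edgeR adjusted p = 2.09e-09), and like Cdh1 it was lower in media than in naive cells (log2 -1.81, edgeR adjusted p = 0.00115). Ctnnb1, which encodes β-catenin, rose by 0.35 on the log2 scale (edgeR adjusted p = 0.000723) and Ctnnd1, which encodes p120-catenin, by 1.84 at under 1 CPM (edgeR adjusted p = 0.00136). Ctnnbip1 did not pass (0.31, edgeR adjusted p = 0.0593). Against naive cells, media had more Ctnnbip1 (3.67) and Ctnna1 (1.5) and less Klrg1 (-3.15), which the day 4 fit could not test. Of the 7 genes tested in this comparison, Klrg1 among them, 3 rose and 2 fell, where 60.8% of all genes passed.

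Known repressors of Cdh1 moved in both directions. Of 10 listed 7 could be tested, and 3 rose and 2 fell in rat tail collagen against media, where 58.4% of all genes passed (median log2 0.03). Ctbp2 (log2 3.54, edgeR adjusted p = 7.07e-07) and Snai1 (1.52, 0.00039, at about 1 CPM) rose, and Snai3 (-1.31, 1.41e-05) and Ctbp1 (-0.38, 0.00188) fell. Zeb1 had 47.1, 46.3 and 54.5 CPM in rat tail collagen, against 52.4, 58.2 and 70.1 CPM in media, and did not pass (log2 -0.30, edgeR adjusted p = 0.0635). In media against naive cells, where Cdh1 fell, Snai3 (0.99) and Tcf3 (0.79) rose and Zeb1 (-0.74) fell.

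The TGF-β, RUNX and T-box regulators of Itgae changed in 13 of 14 cases in rat tail collagen against media, 5 higher and 8 lower, where 29.7% of all genes were higher and 28.7% lower (median log2 -0.46). The receptor gene Tgfbr2 had 130, 146 and 144 CPM in rat tail collagen, against 283, 258 and 262 CPM in media, and fell by 0.95 on the log2 scale (log2 -0.95, edgeR adjusted p = 6.99e-07). Smad3, which carries the TGF-β signal to the nucleus (-0.93, edgeR adjusted p = 4.22e-07), and Cbfb, the partner of the RUNX factors (-1.04, 3.39e-07), fell with it, while Skil, a repressor of SMAD signalling, rose (1.52, 3.63e-07). Tbx21, which encodes T-bet, a repressor of Itgae, had 102, 97.4 and 86 CPM in rat tail collagen, against 59.7, 51.4 and 42.8 CPM in media (log2 0.88, edgeR adjusted p = 0.000129). Eomes, the other T-box gene of the list, went the other way, with 28.3 to 54.2 CPM in rat tail collagen, against 69.7 to 77.4 CPM in media. Runx3, known to bind the Itgae gene, had 249, 262 and 271 CPM in rat tail collagen, against 177, 199 and 211 CPM in media (0.40, edgeR adjusted p = 0.00131). Against naive cells media had 3 of the 14 higher and 10 lower, among them Smad7 (-1.45), Ski (-1.63) and Runx1 (-1.56), where 60.8% of all genes passed, and Itgae itself did not pass there. Tbx21, Eomes and Runx3 were named here after their values had been seen.

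**Figure D5:**
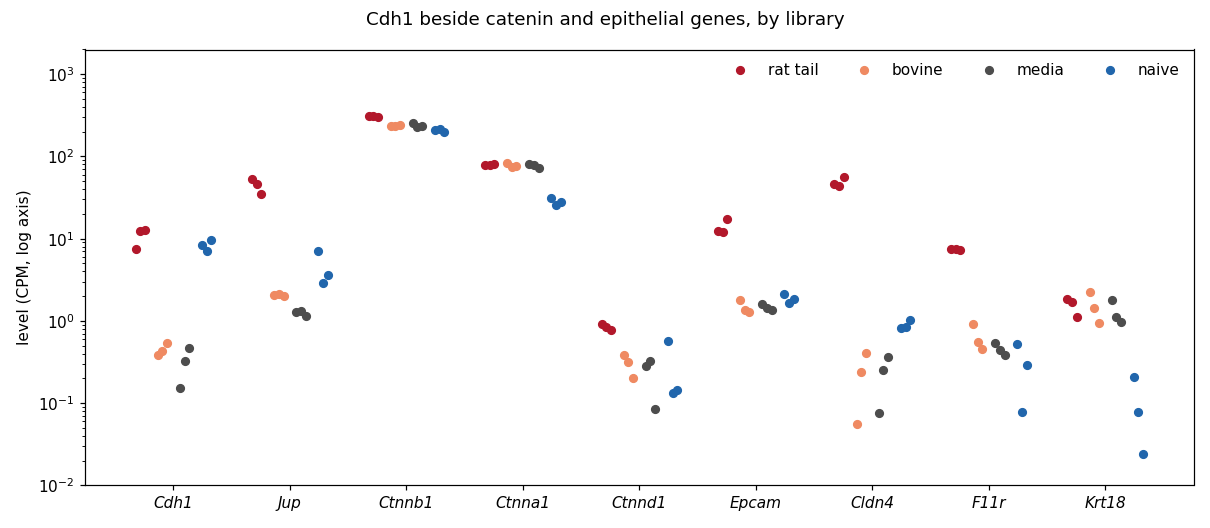
Level in CPM (vertical axis, log scale) of Cdh1, 4 catenin genes and 4 genes of epithelial cells, with a point for each of the 3 libraries of the rat tail collagen, bovine collagen, media and naive groups. Cdh1, Jup, Epcam, Cldn4 and F11r lie higher in rat tail collagen than in bovine collagen and media, whereas Ctnna1 and Krt18 do not separate the 3 activated groups.

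Some other genes of epithelial cells were raised beside Cdh1. The 8 epithelial markers summed to 58.4 to 75.5 CPM in rat tail collagen, 2.72 to 4.24 in bovine collagen, 2.69 to 3.51 in media and 2.62 to 3.20 in naive libraries. Of the 4 that could be tested 3 rose against media, where 29.7% of all genes rose, and 1 of the 3, Esrp1, passed the low count filter only through the rat tail collagen libraries. The 3 were Cldn4, a tight junction gene (48.5 ± 6.51 CPM in rat tail collagen, log2 7.72, edgeR adjusted p = 1.06e-08), Epcam (13.9 ± 2.96 CPM, 3.22, 1.02e-07) and Esrp1, which had 0.868, 0.821 and 0.686 CPM in rat tail collagen (edgeR adjusted p = 4.67e-06). The keratin gene Krt18 averaged 1.56 CPM in rat tail collagen, against 1.3 CPM in media, and did not pass (log2 0.26, edgeR adjusted p = 0.53). Most of the rat tail collagen sum was thus Cldn4 and Epcam. None of the 8 was at 0 in all rat tail collagen libraries, but some were close to it. Krt19, Krt8, Cldn3 and Cldn7 had 5, 9, 15 and 31 counts summed over the 3 libraries and could not be tested. Krt19 and Cldn3 were at 0 in bovine collagen, Krt8, Krt19 and Cldn3 in media and Krt8 in naive libraries. The part of epithelial cells in the level of Cdh1 was not tested. Dendritic cells can carry Itgae and Cdh1, and their 6 markers summed to 3.77 to 4.43 CPM in rat tail collagen, mostly Zbtb46 at 3.95 CPM, with Clec9a and Cd209a at 0. In bovine collagen the sum was 0.611 to 0.833 CPM and in media 0.556 to 0.831 CPM, with Clec9a, Siglech and Cd209a at 0, and in naive libraries it was 2.87 to 6.96 CPM.

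Lists for other cells were checked in the same way, and their part in the levels of the members was not tested. The B cell markers summed to 712 to 1038 CPM in rat tail collagen, 897 to 1072 in bovine collagen, 895 to 1017 in media and 433 to 499 CPM in naive libraries, nearly all of it Ighm. The stromal and endothelial markers summed to 72.7 to 78.1 CPM in rat tail collagen, 125 to 144 in bovine collagen, 131 to 147 in media and 140 to 170 CPM in naive libraries, nearly all of it Pecam1. This sum was lowest in rat tail collagen, as were Itgae and Itgb7, but other markers of the list went the other way. Col1a1 averaged 4.29 CPM in rat tail collagen, against 0.311 in media, and Pdgfrb 1.17 CPM, against 0.505. Of the 3 that could be tested 2 rose and 1 fell against media, where 29.7% of all genes rose and 28.7% fell. The red cell markers summed to 1.42 to 2.69 CPM in rat tail collagen, 0.153 to 0.251 in bovine collagen, 0.0855 to 0.363 in media and 1.44 to 12.1 CPM in naive libraries. The sum was higher in rat tail collagen and naive cells than in the other groups, as was Cdh1, but it rested on different genes. In rat tail collagen it was mostly Alas2 (1.44 CPM), which passed the low count filter only through these libraries, and the highest globin gene, Hba-a2, averaged 0.192 CPM. In naive cells the globin genes Hbb-bs (1.78 CPM) and Hba-a1 (1.28 CPM) led, with Alas2 at 0.156 CPM. The NK, γδ and CD4 T cell markers summed to 75.6 to 87.0 CPM in rat tail collagen, 41.2 to 52.8 in bovine collagen, 38.0 to 55.2 in media and 36.6 to 68.5 CPM in naive libraries, with Zbtb7b the highest in the 3 activated groups. Within this list the NK cell receptor gene Klrb1c, named after its values were seen, had 9.97, 8.09 and 8.06 CPM in rat tail collagen, 0.725, 0.476 and 0.102 CPM in bovine collagen, 0.478, 0.323 and 0.171 CPM in media and 10.9, 5.33 and 6.17 CPM in naive cells. Like Cdh1 it was low in bovine collagen and media and higher in rat tail collagen (log2 4.71 against media, edgeR adjusted p = 2.39e-06) and in naive cells. The level of Klrb1c does not stand for the list. Of its 6 genes 5 could be tested in rat tail collagen against media, and 2 rose and 1 fell, where 58.4% of all genes passed. In rat tail collagen against naive cells all 6 could be tested, and 1 was higher and 2 were lower, where 71.9% of all genes passed. Foxp3 did not pass in rat tail collagen against media (log2 2.25, edgeR adjusted p = 0.132). In bovine collagen against media no gene of any list passed.

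Genes with the most similar profile were found by the root mean square difference of centred log2 CPM over the 12 libraries, among 10511 genes. For Itgae these were Rgs10 (0.229), Slc28a2 (0.242), Sh3bp5 (0.248), Grap2 (0.270) and Card6 (0.275), where the median gene differed by 0.846. Rgs10, which encodes a regulator of G protein signalling, averaged 26.5 CPM in rat tail collagen, 86.2 in bovine collagen, 91.5 in media and 86.0 in naive cells. Grap2, which encodes the T cell adaptor GADS, averaged 245 CPM in rat tail collagen, 599 in bovine collagen, 592 in media and 713 in naive cells. All 5 had their lowest group mean in rat tail collagen, which follows from choosing them by their likeness to Itgae. For Cdh1 the nearest were Sorcs2 (0.515), Kifc3 (0.585), Prpf40b (0.635), Spsb1 (0.755) and Sbf2 (0.828), against a median of 2.34. Sorcs2 averaged 17.3 CPM in rat tail collagen, 0.803 in bovine collagen, 0.836 in media and 10.2 in naive cells, and Spsb1 10.01 CPM in rat tail collagen, 0.370 in bovine collagen, 0.567 in media and 20.0 in naive cells. Like Cdh1, by which they were chosen, these genes were present in naive cells, low in media and bovine collagen and present in rat tail collagen.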

How the data were processed

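Bulk RNA of 12 libraries, 3 per group, was sequenced after DNase treatment and depletion of ribosomal RNA, per the labels' protocols. HISAT2, SAMtools, Picard, featureCounts, FastQC and MultiQC, and the builds mm10 and GRCm38, are named in the submitters' processing notes, while the sources used here give neither versions nor the strand setting. The authors deposited raw read counts per gene symbol, which were used unchanged. Counts were tested with edgeR 4.0.16 (filterByExpr, TMM, robust quasi-likelihood F test, Benjamini-Hochberg over all genes tested) in R 4.3.3, with limma 3.58.1 below it. The 9 day 4 libraries shared 1 fit, and each comparison with naive cells used its own 6 libraries. The SE is the log2 fold change divided by the square root of F. Levels are CPM with TMM factors over 12 libraries, divided by the union of GENCODE M21 exons where genes are compared, and 53291 of 55291 symbols were found there. Ratios within a library were tested by exact permutation.

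Members and lists were chosen with earlier results of these data known. Named genes were the 10 members, up to 4 genes per list with the smallest adjusted p in rat tail collagen against media, up to 3 in media against naive, of which the text gives part, the highest marker of a list, and the 5 genes nearest in profile to Itgae and Cdh1 with 5 CPM or more in a group. Alternatives were RLE factors, library totals, DESeq2 1.42.0, other filters, other sets of libraries, the replicate block, removal of ribosomal RNA genes and leaving out libraries. Same-numbered libraries correlated at -0.0254 to 0.444 in their deviations from the group means, and no comparison had all pairs over 0.1, so numbers were not treated as pairs. Replicates differed from each other by more than counting noise. The fit was tested on simulated data. Counts carry no stated molecular identifiers, and reads were not analysed here.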

Additional observations from a re-analysis of the deposited data

How the results depend on the processing

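Without the 3 libraries highest in ribosomal RNA (rat tail collagen 1 and 3 and bovine collagen 2), 5 members and 6726 genes passed in rat tail collagen against media, 5485 genes in rat tail against bovine collagen and 1 gene in bovine collagen against media. Itgae then missed the threshold against media (log2 -1.28, edgeR adjusted p = 0.0839) and bovine collagen (-1.31, 0.0996) and read 0.0277 in bovine collagen against media, Icam1 read -0.00176 in rat tail against bovine collagen, and Cdh1 passed against naive cells (0.63, 0.0227). The fit of the day 4 libraries without these 3 tested 20597 genes. With 1 rat tail collagen library left, that library was assumed to vary like the others. The 4 genes called in bovine collagen against media became 9 with library totals, 22 with DESeq2, 39 without a filter, 2 in the 6 libraries alone and 7 with the replicate block. Values near 0 that no fit called changed sign. Icam1 in rat tail collagen against media read 0.0122 with library totals and 0.0153 with the 1 CPM filter, and in bovine collagen against media Itgal read -0.0246 and Itgb7 -0.00458 with library totals. Itga6 in rat tail against bovine collagen read 0.0148 with RLE factors, 0.135 with library totals, 0.0148 with DESeq2, 0.052 with the 1 CPM filter, 0.00668 with all 12 libraries, 0.00912 with 6, 0.00505 with the replicate block and 0.0104 without ribosomal RNA genes. Cdh1 in rat tail collagen against naive cells passed without a filter (0.39, edgeR adjusted p = 0.00611). The cause was not tested for any of these. Library totals moved the share of higher calls in rat tail against bovine collagen to 66.3%, against 51.8% with TMM factors, and in bovine collagen against media to 66.7%, against 100%.

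With replicate number as a block, the members called stayed at 8 against media, 7 against bovine collagen and 8 against naive for rat tail collagen, at 0 for bovine collagen against media and at 8 for media against naive. Over all genes the block called 12070, 11402 and 14321 for rat tail collagen in that order, 7 for bovine collagen and 10407 for media. It ended no call of a member. In the comparisons of rat tail collagen with media and with naive cells every library correlated best with its own number, a hint from the data only. Same-numbered libraries 1, 2 and 3 of bovine collagen and media correlated at 0.373, 0.0290 and 0.444. Bovine collagen 1 with media 3 gave -0.378, and bovine collagen 3 with media 1 gave -0.413. Among the members, Itga4 was lowest and Itga6 and Cdh1 were highest in library 3 of every group, while Itgae kept no such order.

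Leaving out each library in turn, the members called ran from 7 to 8 in rat tail collagen against media, 0 in bovine collagen against media, 7 in rat tail against bovine collagen, 7 to 9 in media against naive and 8 to 9 in rat tail collagen against naive. Over all genes the calls ran from 9986 to 11723 in rat tail collagen against media and from 9346 to 11471 in rat tail against bovine collagen. They ran from 10136 to 11310 in media against naive and from 12891 to 14053 in rat tail collagen against naive. Itgae stayed called in rat tail collagen against media (-1.86 to -1.34). It ran from -0.471 to 0.231 in bovine collagen against media and from -0.429 to 0.0487 in media against naive, and Cdh1 in rat tail collagen against naive from 0.281 to 0.633. Genes called in bovine collagen against media ran from 2 to 5. Uncalled members ran from -0.0997 to 0.0465 for Icam1 in rat tail collagen against media, -0.0622 to 0.0496 for Itgb2 in bovine collagen against media and -0.0649 to 0.11 for Itga6 in rat tail against bovine collagen. In bovine collagen against media the log2 chain ratios ran from -0.703 to 0.0244 for Itgae to Itga4, -0.514 to 0.0361 for Itgae to Itgb7 and -0.0947 to 0.149 for Itgav to Itgb3. Ratios without division by length differ by a constant and give the same differences. With a prior count of 0.5, 4 of the 5 genes nearest to Itgae and 5 of the 5 nearest to Cdh1 stayed. The wide intervals of Itgae and the 8 to 22 counts of Cdh1 per library in media limit the smallest change that could be called.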
